A study of Mus musculus with 6 samples.

Results

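Retained-intron transcripts are annotated splice variants that keep sequence which other transcripts of the same gene splice out. The set described here was chosen by annotation and level. It holds the autosomal transcripts of GENCODE M21 (mouse build GRCm38) with the type retained_intron, in protein-coding genes, whose mean over the 6 libraries was at least 1 TPM (kallisto's level of a transcript, scaled for length and depth). Of 20896 such transcripts in the files, 5366 reached that level, and they came from 3194 genes. The files list 142647 transcripts in all, of which 141524 matched the annotation. The level that chose the members is a description only. Their change between the groups was not part of the rule. The series compared CD4+ T cells of C57BL/6J mice with a wild-type genotype (WT, 3 libraries) with CD4+ T cells labelled Wtap KO (3 libraries, titled iKO). All 6 libraries share 1 protocol text. To deplete Wtap it gives 4-hydroxytamoxifen (1 µM, 24 h). The cells were then stimulated for 40 to 48 h through CD3 (antibody at 1 µg/mL) and CD28 (2.5 µg/mL), in Th1 conditions made with an antibody against IL-4 (10 µg/mL) and with IL-12 (10 ng/mL). Expansion in IL-2 at 200 IU/mL followed until day 4, and mRNA libraries were read as pairs of 50 bp. The sources used here do not give age, the Cre driver, Cre status of the WT cells, the deleted part of Wtap or the number of animals, and p-values therefore cover only the spread among these 6 libraries, which may be technical.

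Introns are normally removed before an mRNA leaves the nucleus. A transcript that keeps one is often held in the nucleus or degraded, and regulated intron retention is a known way for cells, T cells among them, to set the level of splicing factors and signalling proteins. Wtap is the adaptor that places the methyltransferase pair Mettl3 and Mettl14 at nuclear speckles, where the complex writes N6-methyladenosine (m6A) on nascent RNA. The comparison therefore asks whether introns were kept more or less often in the Wtap KO cells, which is read here as the share of a gene's estimated counts that its retained-intron transcripts hold. That share measures an annotation class, and not all transcripts of the class hold a whole intron.

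The annotation type covers 2 kinds of transcript, and the splice sites they leave uncut show the difference. Each line below gives 30 bases of the GENCODE M21 transcript sequence, 5′ to 3′ on the strand of the gene, around an annotated splice site that the member reads through. Capitals mark the intron's end dinucleotide, GT at a donor (5′ splice site) or AG at an acceptor (3′ splice site). For each of the 9 members whose share passed the test, the sites where it begins or ends inside an intron, or the ends of its whole intron, are shown (Pml-210 reads through 2 further annotated acceptors), with 1 abundant member that keeps a short intron whole, Eef1a1-203. The coordinate, on GRCm38, is the intron base at the site.
Hnrnpl-206 donor (chr7, 28815353, plus strand): aagGTaatcctgatggctactttgttctaa
Lnpep-204 donor (chr17, 17570873, minus strand): cagGTatcaccaacgcataccgttatatct
Cdh23-208 donor (chr10, 60376788, minus strand): tcgGTgagcaacggaggtggatgggatggc
Slc35g1-202 donor (chr19, 38400615, plus strand): aaaGTaagtacttcatagagcgaatagagg
Eif2a-206 donor (chr3, 58548965, plus strand): ctgGTaagtaagaaataacacagagcaaag
Eif2a-206 acceptor (chr3, 58544994, plus strand): tgtctaattcatttcttctcattttAGaca
Gprc5b-203 acceptor (chr7, 118976671, minus strand): ttgtcatcccgggaactccgtcctcAGctc
Gmfg-205 acceptor (chr7, 28443219, plus strand): ttccctgtctctttctctctgcctcAGaac
Pml-210 acceptor (chr9, 58233248, minus strand): gtgttctccgttgtgttttcctcccAGatg
H2-Q4-202 donor (chr17, 35380174, plus strand): gcgGTgagtgaccccggatcggaggtcacg
H2-Q4-202 acceptor (chr17, 35380360, plus strand): ggcggggctgaccgcggggtcccgcAGgct
Eef1a1-203 donor (chr9, 78479277, minus strand): cagGTgacacatttttaagataggtggcta
Eef1a1-203 acceptor (chr9, 78479193, minus strand): gacttaaatacacgctgtttttcttAGgtg
H2-Q4-202 and Eef1a1-203 run through both sites, so they hold an intron from end to end, of 187 and 85 bases. The 5 members shown with a donor and no whole intron end inside the intron, and those shown with an acceptor alone begin inside it. Eif2a-206 does both, in different introns.

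The libraries held 32363139 to 44039467 estimated counts, of which 99.73% to 99.77% lay in matched transcripts. Total Wtap RNA in CPM (gene counts scaled to library depth) was 105 ± 9.99 in WT and 117 ± 3.00 in Wtap KO (SD, n = 3 each; edgeR's quasi-likelihood test, adjusted p = 0.371). Of the gene's counts Wtap-205 held 51.3% ± 4.19 in WT and 10.0% ± 1.10 in Wtap KO, whereas Wtap-201 held 33.7% ± 6.42 and 62.5% ± 3.34 and Wtap-203 held 0.146% ± 0.253 and 15.9% ± 2.78. The Wtap gene holds no member. Library 3 of Wtap KO had Xist at 3.81 CPM and Kdm5d at 63.3 CPM, the pattern of a male animal. In the other 5 libraries Kdm5d was at 2.43 to 3.53 CPM. Xist was at 3160 to 4447 CPM in WT and at 1979 and 2161 CPM in libraries 1 and 2 of Wtap KO. The members are autosomal, and whether their shares differ by sex was not tested. T cell markers were present in every library, with a summed level of 3302 to 3618 TPM in WT, against 2698 to 3002 TPM for Wtap KO. Of the lists for other cell types, 3 had a higher sum in every Wtap KO library than in any WT library: the NK cell list (2.10 to 6.88 and 10.4 to 13.3 TPM, most of it Klra7), the dendritic cell list (10.6 to 33.8 and 36.1 to 48.5 TPM) and the CD8 T cell list (7.18 to 7.79 and 11.4 to 13.9 TPM, most of it Cd8b1), each with an exact two-sided permutation p of 0.1. Within the dendritic cell list Cd74 was at 2.33 to 9.31 TPM in WT, against 23.1 to 32.3 TPM for Wtap KO and H2-Aa at 0.795 to 2.36 and 4.73 to 6.84 TPM. H2-Ab1 of that list had overlapping groups, at 30.3, 7.22 and 6.13 TPM in WT and 7.38, 8.35 and 7.09 TPM in Wtap KO. Flt3 and Itgax, like Ncr1 of NK cells and Pax5 of B cells, stayed under 0.2 TPM. Flt3, Zbtb46 and Xcr1 of the dendritic cell list were low, yet higher in every Wtap KO library than in any WT library. Zbtb46 was at 0.149 to 0.206 TPM in WT and 0.263 to 0.356 TPM in Wtap KO. Itgax, Clec9a and Siglech had overlapping groups. The B cell list summed to 331 to 573 TPM over all libraries, nearly all of it Ighm. Malat1, a noncoding RNA of nuclear speckles, read 122, 112 and 91.0 TPM in the WT libraries and 81.1, 67.3 and 79.6 TPM in the Wtap KO libraries. In the same list of nuclear noncoding RNAs Neat1 was also lower, at 19.0 to 25.9 TPM in WT and 7.76 to 9.67 TPM in Wtap KO. Pvt1 went the other way, at 16.2 to 17.0 and 22.4 to 23.5 TPM, and Kcnq1ot1 was at 0.303 to 0.381 TPM over all libraries. The part of these values in the results below was not tested, and in bulk libraries fewer cells of a type and less RNA per cell cannot be told apart.

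Most members were scarce, and a few were among the most abundant RNAs of the cell. The median member had a mean level of 2.54 TPM (quartiles 1.51 and 5.44) and held 4.91% of its gene's counts (quartiles 1.81% and 12.3%). Levels of 10 TPM or more were reached by 745 members and of 100 TPM or more by 62, and the 20 highest held 38.2% of the summed TPM of all members. A share over 50% of the gene was held by 159 members, a share under 1% by 772, and 311 were the most abundant transcript of their gene by counts. Most genes (1910) had 1 member, with 744 genes holding 2, 540 holding 3 or more and Eif4a2, a helicase of translation initiation, holding 12. The share varied between libraries of the same group by a median coefficient of variation of 20.4% in WT and 16.2% in Wtap KO, and the median member rested on 98.3 estimated counts per library, which limits how small a change can be seen. All 6 libraries were at 1 TPM or more for 3733 members; the group mean reached 1 TPM in WT only for 234 members and in Wtap KO only for 319, and 119 were listed at 0 in at least 1 library.

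The member with the highest TPM was Rps26-202. This transcript, from a gene of the small ribosomal subunit, was at 3740 ± 90.1 TPM (SD, n = 3) in WT, against 4011 ± 224 TPM for Wtap KO and held 99.6% to 99.7% of its gene's counts in every library. Its first exon starts inside an intron of 235 bases that annotated coding transcripts remove, so nearly all counts of this gene carry the retained-intron label. Eef1a1-203, from the gene of the factor that brings aminoacyl-tRNA to the ribosome, was at 2032 ± 190 TPM in WT, against 2775 ± 93.2 TPM for Wtap KO. Its share was 9.96%, 12.1% and 10.0% in WT and 13.1%, 12.7% and 13.4% in Wtap KO, higher in every Wtap KO library than in any WT library, and did not pass edgeR's test of shares (adjusted p = 0.362). Also among the 8 highest were Tpt1-203, Rps7-205, Rps20-201 and H2-K1-215, the last from a classical class I antigen-presenting gene. None of the 8 passed the test of share. Tpt1-203 shows how unevenly reads can be split within a group, at 13.9%, 19.98% and 29.8% of its gene in WT and 28.7%, 22.3% and 15.3% in Wtap KO.

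Rps26-202 was also among the 8 members with the highest shares of their gene. The other 7 had mean levels between 1.07 TPM (Mast1-206) and 17.8 TPM (Pkp3-205). Vmn2r115-202, from a vomeronasal receptor gene, held 100% of its gene's counts in all 6 libraries at 1.36 ± 0.131 TPM in WT, against 1.01 ± 0.0753 TPM for Wtap KO, and Spo11-204, from the gene of the meiotic DNA-cutting enzyme, held 94.4% to 95.7% at 7.18 ± 2.54 and 9.09 ± 1.21 TPM. Dnah14-208, H2-Q10-203, Slc26a10-204, Mast1-206 and Pkp3-205 likewise held over 90% in every library. Dnah14-208 overlaps exons of Lbr and Gm23690, so its reads cannot be assigned to Dnah14 with certainty. At the threshold itself, Actg1-208 (1.00086 TPM), Cyb5r4-204 (1.0006 TPM) and Tsen15-207 (1.00005 TPM) lay just inside, and Exosc2-206 (0.999487 TPM), Nosip-204 (0.999338 TPM) and Tmem131l-211 (0.998518 TPM) just outside.

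Whole introns were the smaller class. A complete intron of an annotated coding transcript lay within an exon of 1725 members (32.1%), and 3616 members (67.4%) held only part of one, because they begin (1631), end (1483) or do both (400) inside an intron with 102 whose ends both lie outside introns. The remaining 25 had no base outside coding-transcript exons. Members with a whole intron held a median of 7.45% of their gene's counts, against 4.29% for those with a part. Counts grow with length, and the whole-intron members were longer, with a median of 1617 bases against 707. Scaled for length, the median levels were 2.43 TPM for whole-intron members and 2.59 TPM for those with a part. Where bases outside coding exons were concerned, 311 members overlapped an exon of another gene, and for these the counts may come from either gene. The strand setting of the counting is not known here.

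The kept whole introns were short. The 2226 distinct introns had a median of 237 bases (quartiles 103 and 654), against a median of 1087 bases (quartiles 346 and 2691) for the 48147 introns of coding transcripts of the same genes. GT opened 98.3% of them and GC 1.21%, and AG closed 99.4%. These shares were close to those of the 5661 introns kept in retained-intron transcripts below the level threshold, 98.4%, 1.04% and 99.4%, with a median length of 253 bases there. Length was no part of the rule, and the lengths are a description, without a test.

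**Figure D1:**
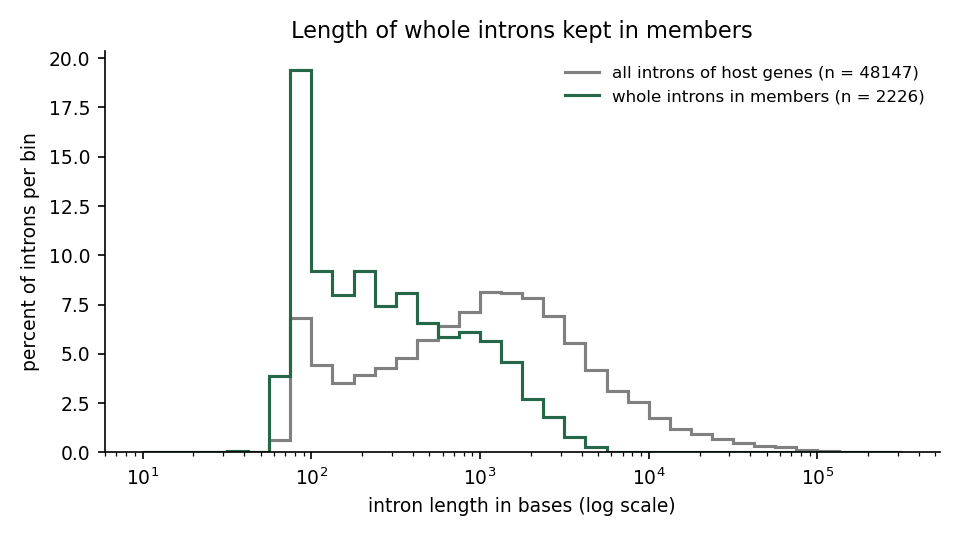
Length of introns in bases (x axis, log scale) against the percent of introns in each bin (y axis), for the 2226 whole introns kept in members (green) and the 48147 introns of coding transcripts of the same genes (grey). The kept introns pile up near 100 bases and have a median of 237 bases, against 1087 bases for all introns.

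As a sum over all members, transcripts with the retained-intron label made up the same part of host gene counts in both groups, within the spread between libraries. Most members hold only part of an intron, so this is a sum over an annotation class. The members held 10.7%, 11.0% and 10.8% of the counts of their genes in WT and 10.9%, 10.7% and 11.2% in Wtap KO. The groups overlapped, with means of 10.8% ± 0.135 (SD, n = 3) and 10.9% ± 0.276 and a difference of 0.102 percentage points (exact two-sided permutation test, p = 0.7; 3 against 3 cannot go below 0.10). The sign of that small difference was not stable, since it was -0.135 points when TPM took the place of counts (p = 0.6, exact permutation) and -0.049 points without Wtap KO 3. Members with a whole intron held 8.20% ± 0.163 and 8.52% ± 0.437 (p = 0.2, exact permutation), and those with part of an intron 8.90% ± 0.0779 and 8.92% ± 0.0642 (p = 0.7, exact permutation). The highest whole-intron value, 9.0%, was that of Wtap KO 3, and the other 5 libraries lay between 8.10% and 8.40%.

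Transcripts annotated as targets of nonsense-mediated decay, the pathway that degrades mRNAs with a premature stop, held 19.4% ± 0.351 of their genes' counts in WT and 19.99% ± 0.228 in Wtap KO (1803 transcripts chosen by the same rule, p = 0.2, exact permutation). Processed transcripts, which have no open reading frame assigned, held 8.05% ± 0.0568 and 8.18% ± 0.0574 (2858 transcripts, p = 0.1, exact permutation, the smallest p the design allows). The log2 ratio of retained-intron to decay-target counts was 0.60, 0.66 and 0.63 in WT and 0.63, 0.59 and 0.66 in Wtap KO, a difference of -0.001 (p = 0.9, exact permutation). The groups overlapped, so this ratio did not differ by more than the spread between libraries.

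**Figure D2:**
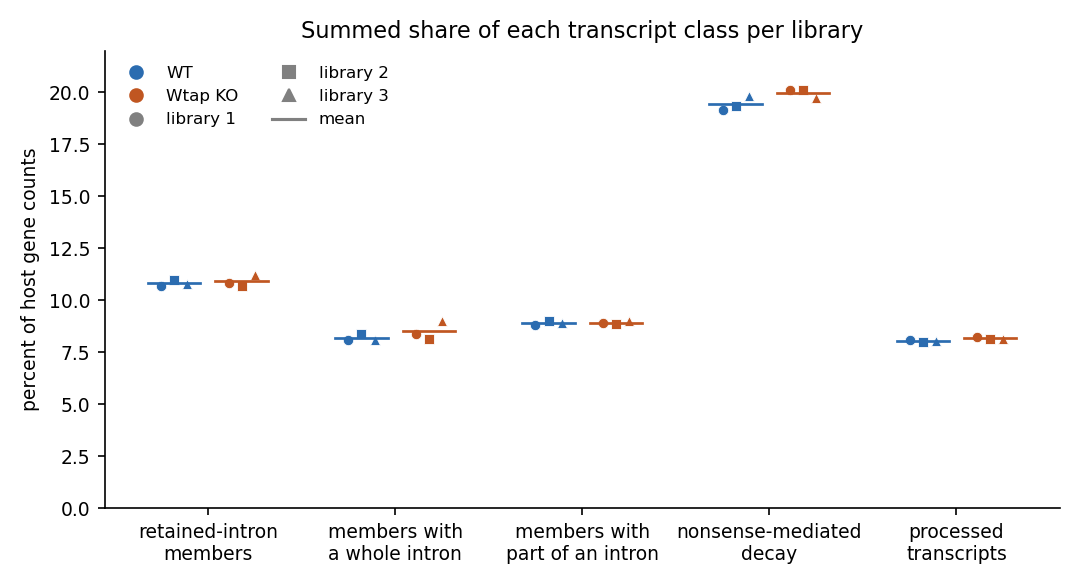
Summed share of each transcript class, in percent of the counts of its host genes (y axis, from 0), for 3 WT (blue) and 3 Wtap KO (orange) libraries; shapes mark library numbers and lines the group means. Retained-intron members sit between 10.7% and 11.2% in all 6 libraries, and nonsense-mediated decay targets near 20%.

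Transcript by transcript, few members were called for a changed share, and no more often than transcripts in general. The count of calls is not a count of changes. In simulated data this test recovered 0% of 2-fold and 18% of 4-fold changes. Of 5314 members tested, 6 rose and 3 fell in Wtap KO at an adjusted p under 0.05 in edgeR's quasi-likelihood test with the gene total as offset. That is 0.169% of members, beside 0.178% of all 39369 transcripts tested (0.0889% higher and 0.0889% lower). Groups of libraries did not overlap for 516 members that were higher and 348 that were lower, together 16.3% of members, beside 17.5% of all transcripts (9.45% higher and 8.09% lower). An unadjusted p under 0.05 was reached by 489 members (9.20%), 285 higher and 204 lower, beside 9.42% of all (4.98% higher and 4.44% lower). The members' log2 change of share had a median of 0.03 and middle 50% between -0.18 and 0.25, beside a median of 0.005 and -0.21 to 0.26 for all transcripts. Decay targets had 9 calls among 1778 tested (0.506%) and a median of 0.03, and processed transcripts 5 among 2762 (0.181%) and a median of 0.02. The count of 9 rests on all libraries: it was 0 or 1 when any single library was left out (1 without WT 3), and 102 with DESeq2, which in simulated data also called 164 transcripts in genes without a change.

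**Figure D3:**
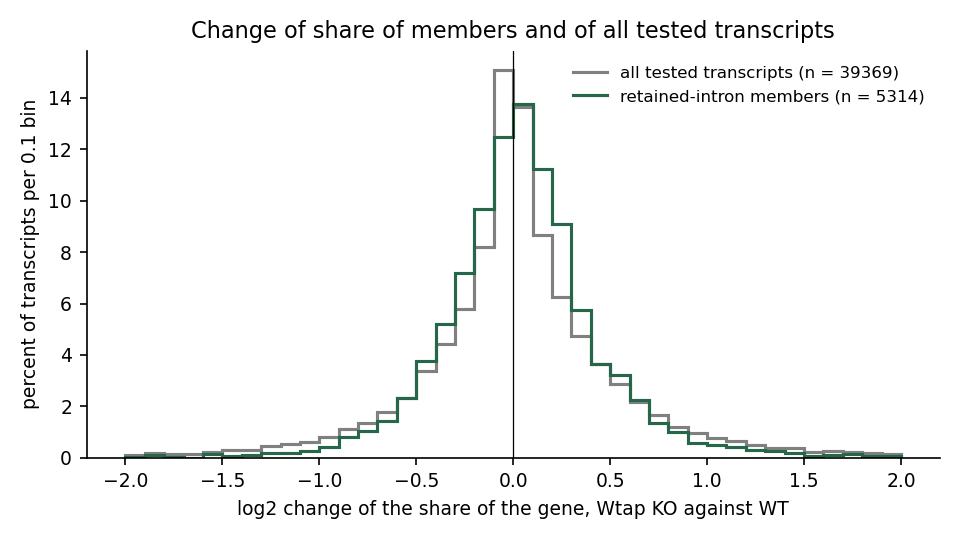
Log2 change of the share of the gene, Wtap KO against WT (x axis), against the percent of transcripts in each bin of 0.1 (y axis), for 5314 members (green) and all 39369 tested transcripts (grey). Both curves centre near 0, with medians of 0.03 and 0.005, and the members' curve has thinner tails.

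Higher share in Wtap KO was called for members of 6 genes with unlike functions. Hnrnpl-206 belongs to Hnrnpl, an RNA-binding splicing regulator that in T cells acts on exons of the phosphatase gene Ptprc, and it ends 1608 bases into an intron of 3108 bases. It held 5.32%, 6.24% and 6.75% of the gene's counts in WT and 14.7%, 13.1% and 15.4% in Wtap KO, so that the lowest Wtap KO library stood well above the highest WT library (log2 change 1.24 ± 0.11 (SE), adjusted p = 0.0493 in edgeR's quasi-likelihood test). Its level was at 9.72 ± 1.78 and 20.3 ± 1.98 TPM, and the whole gene did not pass (log2 -0.22 ± 0.10, adjusted p = 0.22). Other Hnrnpl transcripts did not pass the test of share. Another member, Hnrnpl-205, was at 2.10% ± 0.275 and 3.86% ± 0.416 (adjusted p = 0.13), the decay target Hnrnpl-213 at 10.8% and 16.2%, and the coding Hnrnpl-202 at 67.1% and 55.4%.

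Lnpep-204 comes from the gene of an aminopeptidase of endosomes. It held 0.455%, 0.457% and 0.511% in WT and 1.52%, 1.41% and 1.56% in Wtap KO (log2 1.66 ± 0.11, adjusted p = 0.0303, edgeR). It was thus a minor transcript in both groups, and coding Lnpep-201 held 96.1% and 94.6%. Cdh23-208, from a cadherin gene best known from sensory hair cells, held 15.4%, 13.9% and 12.5% in WT and 50.2%, 45.6% and 54.2% in Wtap KO (log2 1.85 ± 0.16, adjusted p = 0.047, edgeR). Its mean level was 0.423 TPM in WT, against 1.75 TPM for Wtap KO, so it passed the threshold of 1 TPM only through the group where it is high, and its change is no support; without it 5 members rose. Its gene was low, at 7.83 and 8.48 CPM, and the WT shares rest on 31.5 to 45.3 estimated counts per library. Gprc5b-203, from an orphan G protein-coupled receptor gene, held 17.9%, 19.2% and 20.98% in WT and 47.6%, 48.5% and 42.5% in Wtap KO (log2 1.25 ± 0.11, adjusted p = 0.047, edgeR), beside coding Gprc5b-201 at 68.4% and 46.8%. Per length, Gprc5b-203 lay above Gprc5b-201 in both groups, at 5.66 ± 2.28 and 2.45 ± 0.763 TPM in WT, against 22.3 ± 3.30 and 2.89 ± 0.852 TPM for Wtap KO.

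Eif2a-206 and Slc35g1-202 complete the 6. Eif2a encodes an initiation factor that can deliver the initiator tRNA, and Slc35g1 a membrane transporter of the solute carrier families. Eif2a-206 held 2.14%, 2.12% and 2.05% in WT and 3.96%, 3.95% and 3.99% in Wtap KO (log2 0.91 ± 0.09, adjusted p = 0.0493, edgeR), while its level was at 1.47 ± 0.362 and 2.00 ± 0.197 TPM and did not pass (adjusted p = 0.498). Slc35g1-202 held 10.5%, 11.8% and 12.4% in WT and 25.3%, 22.7% and 26.4% in Wtap KO (log2 1.10 ± 0.11, adjusted p = 0.0493, edgeR), at 5.24 ± 1.80 and 6.81 ± 1.88 TPM. For both, the gene's total was lower in Wtap KO without passing the test, at log2 -0.51 (adjusted p = 0.0773) for Eif2a and -0.78 (adjusted p = 0.0597) for Slc35g1.

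Lower share was called for 3 members. H2-Q4-202, from a nonclassical class I histocompatibility gene, keeps the intron of 187 bases whose sites are printed above. It also runs past the 3′ end of coding H2-Q4-201, ending at base 35385290 against 35384674. Its counts therefore do not measure the intron alone. It held 30.2%, 28.4% and 34.3% in WT and 9.63%, 9.58% and 8.71% in Wtap KO (log2 -1.73 ± 0.09, adjusted p = 0.026 in edgeR's test), while coding H2-Q4-201 held 69.0% and 90.7% (adjusted p = 0.0493). The gene's total did not pass (log2 -0.20, adjusted p = 0.276). H2-Q4 has near-identical paralogs and H2-Q4-202 overlaps Gm11131, so the split of its reads is uncertain. Of the 9 it was the only member still called without WT 3 (adjusted p = 0.0426), and leaving out any other library gave 0.0646 to 0.21.

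Pml-210 comes from the gene that organises PML nuclear bodies and is induced by interferon. It held 17.4%, 21.2% and 20.6% in WT and 8.88%, 8.40% and 9.62% in Wtap KO (log2 -1.14 ± 0.10, adjusted p = 0.047, edgeR). Its level was at 15.3 ± 2.52 and 7.71 ± 0.839 TPM, and the gene's total was close in both groups, at 196 and 211 CPM. Gmfg-205, from a gene of blood cells that acts on branched actin, held 3.79%, 3.75% and 3.76% in WT and 1.84%, 1.93% and 2.07% in Wtap KO (log2 -0.95 ± 0.07, adjusted p = 0.0387, edgeR). Both groups were tight for this member. Gmfg-205 holds 113 bases of the intron at its printed acceptor and ends at base 28448233. The coding transcripts of Gmfg end at 28446546 at the latest, so the share of Gmfg-205 does not measure the intron alone. Next in order by p, and not passing, were Adgre5-205 (1.85% and 1.20%, adjusted p = 0.0894), Adpgk-203 (33.0% and 19.5%, adjusted p = 0.091) and Ythdc1-207 (22.01%, 21.3% and 19.7% in WT, 13.7%, 11.8% and 14.6% in Wtap KO, adjusted p = 0.119). Ythdc1 is the nuclear reader of m6A. Its decay target Ythdc1-208, which is no member, was at 28.1% and 10.1% and was called (adjusted p = 0.047, edgeR). It and Hnrnpl-205 were named after their values were seen.

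**Figure D4:**
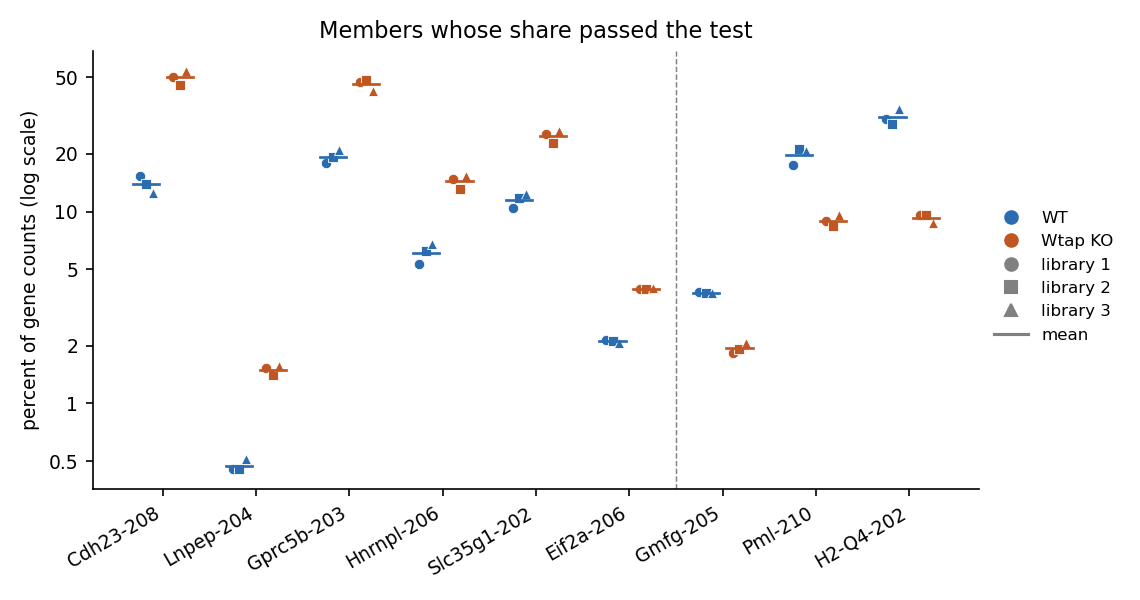
Share of the gene's counts held by the 9 members that passed the test (y axis, percent, log scale) in 3 WT (blue) and 3 Wtap KO (orange) libraries; shapes mark library numbers, lines the group means, and the dashed line parts the 6 that rose from the 3 that fell. The groups do not overlap for any of the 9, from Lnpep-204 near 1% to Cdh23-208 and Gprc5b-203 near 50% in Wtap KO.

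Level, in contrast to share, also moves with the host gene. Of 5327 members tested, 7 rose and 1 fell at an adjusted p under 0.05 in edgeR's quasi-likelihood test (0.150%, beside 0.454% of all 46947 transcripts tested, 0.324% higher and 0.13% lower). The count of 8 was 1 without WT 1 and 0 without any other library. Lnpep-204, Cdh23-208 and H2-Q4-202 were among the 8, but Cdh23-208 met the threshold on this same measure only through its level in Wtap KO, and its call for level is given as a description. Setdb1-204, from the gene of a histone methyltransferase that silences retroelements, was at 3.67, 4.23 and 4.53 TPM in WT, against 13.5, 12.5 and 16.4 TPM for Wtap KO (log2 level change 1.72 ± 0.14, adjusted p = 0.026). It holds a whole intron and was the most abundant transcript of its gene. The gene rose as well (log2 1.05 ± 0.12, adjusted p = 0.00216), and the share went from 43.6% ± 4.06 to 68.9% ± 2.50 without passing (adjusted p = 0.0657).

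Ccnl2 encodes a cyclin that localises to splicing speckles. Ccnl2-205 was at 27.4, 26.1 and 22.4 TPM in WT, against 51.5, 50.6 and 62.0 TPM for Wtap KO (log2 1.07 ± 0.12, adjusted p = 0.0367, edgeR), the gene rose by a log2 of 0.91 ± 0.10 (adjusted p = 0.0023), and the share was 50.9% ± 5.10 and 56.3% ± 0.77 (adjusted p = 0.632). The other 3 were Cggbp1-202, from a gene for a protein that binds CGG repeats (22.9 ± 3.21 and 56.8 ± 1.52 TPM), Rabgap1l-212, from a Rab GTPase-activating protein gene (10.8 ± 0.846 and 24.3 ± 0.193 TPM), and B4galnt1-203, from a gene of ganglioside synthesis (6.69 ± 0.807 and 19.99 ± 0.511 TPM). Members called for level were named after their values were seen.

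**Figure D5:**
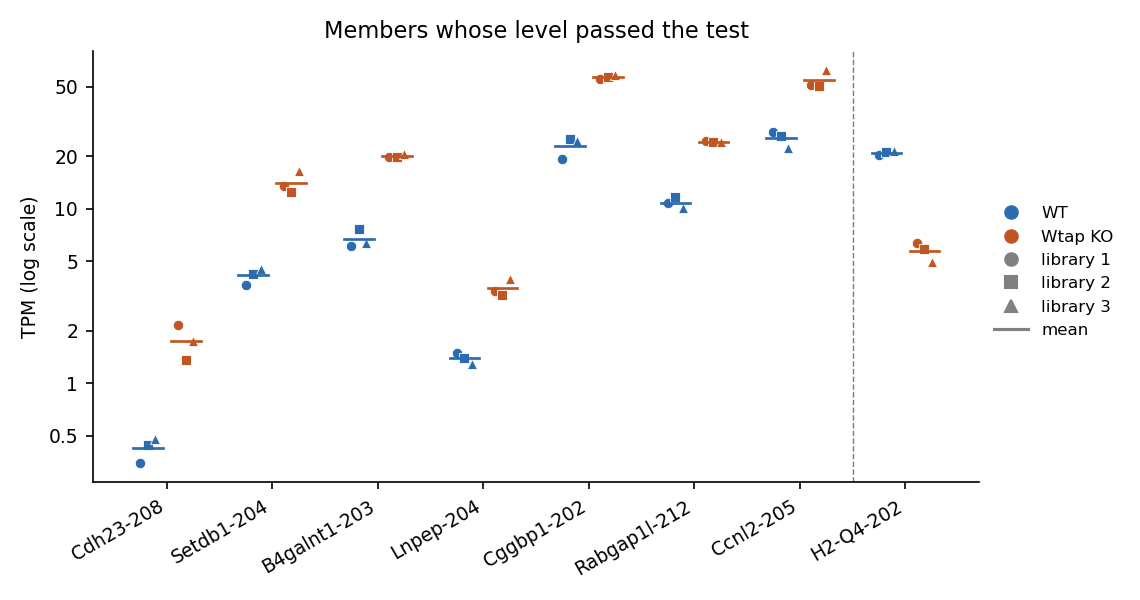
Level in TPM (y axis, log scale) of the 8 members whose level passed the test, in 3 WT (blue) and 3 Wtap KO (orange) libraries; shapes mark library numbers, lines the group means, and the dashed line parts the 7 that rose from H2-Q4-202. Every Wtap KO library lies above every WT library for the 7, and below for H2-Q4-202.

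Of the 3194 host genes, 143 rose (4.48%) and 162 fell (5.07%), together 9.55%, beside 9.23% of all 17621 genes tested (5.74% higher and 3.48% lower). The difference in balance was not tested. The count of 305 was 45, 50 and 113 without Wtap KO 2, 1 and 3, and 73 without WT 2. Among 195 members tested in genes that rose, 161 were also higher in level, with a median log2 change of 0.59 beside 0.71 for their genes, and the median change of share was -0.14. Among 245 members in genes that fell, 196 were lower, with a median of -0.39 beside -0.54, and a share change of 0.16. A gene's total includes its members and is the denominator of the share, so these values are linked by construction and are given without a test.

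Among members in genes of the splicing machinery, 1, Hnrnpl-206, passed the test of share. Of all transcripts tested 0.178% passed, so gene lists of this size would hold few or no calls in any case. The SR proteins, which bind exons and recruit the spliceosome, had 24 members in 9 of 13 genes. None was called, 1 had groups that did not overlap (4.17%, beside 17.5% of all transcripts), and the median log2 change was 0.09. Srsf5-212, which keeps an intron of 1229 bases, was at 55.2%, 59.3% and 67.9% in WT and 52.5%, 55.5% and 71.3% in Wtap KO. Srsf5 itself fell (log2 -0.40 ± 0.09, adjusted p = 0.0335, edgeR), and its member, at 93.7 ± 13.4 and 72.6 ± 16.1 TPM, did not pass for level. Srsf1-203, Srsf2-203, Srsf7-206, Srsf11-208 and Srsf11-218 had overlapping groups.

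The kinases that phosphorylate SR proteins, whose Clk genes are textbook cases of detained introns, had 23 members in 6 of 6 genes. None was called and none had groups apart, beside 0.178% and 17.5% of all transcripts. Clk1-204, which holds 3 whole introns, was at 18.8%, 15.9% and 15.0% in WT and 15.7%, 16.2% and 18.2% in Wtap KO. Clk1-202 (16.1% and 14.8%) and Clk1-213 (13.9% and 13.9%) were as close, and so were Clk4-207, Clk3-202 and Srpk1-206 within their spread. Heterogeneous nuclear ribonucleoproteins, which bind introns and often act against exon inclusion, had 38 members in 15 of 24 genes. Only Hnrnpl-206 was called, and 6 were higher and 2 lower with groups apart (21.1%, beside 17.5% of all transcripts). Hnrnpll-207, from the paralog that drives Ptprc splicing in activated T cells, was at 13.1%, 13.5% and 10.7% in WT and 23.0%, 21.3% and 22.1% in Wtap KO, with groups apart and an adjusted p of 0.0894.

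Core spliceosome genes and splicing cofactors had 116 members in 46 of 61 genes, none called, with 18 higher and 5 lower with groups apart (19.8%, beside 17.5% of all transcripts, 9.45% higher and 8.09% lower) and a median log2 change of 0.04. Members of 1 gene could lie on opposite sides of 0. Snrnp70, the U1 particle protein that reads donor sites, had Snrnp70-206 at 1.77%, 1.70% and 1.43% in WT and 5.04%, 3.40% and 4.88% in Wtap KO (adjusted p = 0.113) and Snrnp70-215 at 25.6%, 25.9% and 18.5% in WT and 15.0%, 12.5% and 12.4% in Wtap KO (adjusted p = 0.207). The minor spliceosome, which removes the rare U12-type introns, had 12 members in 4 of 11 genes, none called, with 1 higher and 2 lower with groups apart (3 of 12, beside 17.5% of all transcripts). Snrnp48-204, a member of its U11/U12 particle, held 82.2%, 84.7% and 78.8% in WT and 78.3%, 75.5% and 71.6% in Wtap KO (adjusted p = 0.507). The 3 Zcrb1 and 2 Scnm1 members lay at adjusted p of 0.606 to 0.831.

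In the m6A writer complex itself, 2 of 8 genes had a member. Rbm15-202, from the gene of the subunit that recruits the complex to RNA, ends 3080 bases into the intron. It held 65.8%, 66.9% and 68.3% in WT and 52.2%, 48.9% and 56.4% in Wtap KO, with groups apart and an adjusted p of 0.169. Mettl3-215, from the catalytic subunit, held 10.5%, 9.67% and 3.48% in WT and 7.87%, 7.01% and 6.32% in Wtap KO. Its groups overlapped, and no gene of the complex passed the test for level.

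Genes of mRNA export had 19 members in 9 of 15 genes, genes of nuclear RNA decay 28 in 16 of 20 and factors of nonsense-mediated decay 7 in 5 of 15. None of these was called, beside 0.178% of all transcripts. Zc3h11a-201, from an export factor gene that fell (log2 -0.68, adjusted p = 0.0225, edgeR), was at 0.487% and 1.14% with groups apart (adjusted p = 0.209). Exosc10-207, from the nuclear exosome's nuclease, was at 1.53%, 1.72% and 2.67% in WT and 4.03%, 4.54% and 3.81% in Wtap KO (adjusted p = 0.315), again with groups apart. Zcchc8-207, Smg5-203 and Rnps1-208 had adjusted p of 0.363 to 0.838. Nuclear decay had the highest median of the lists with at least 20 members, 0.17 over 28 members; 3 were higher and 1 lower with groups apart (14.3%, beside 17.5% of all transcripts).

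T cell receptor signalling genes held 43 members in 20 of 32 genes, none called, with 2 higher and 3 lower with groups apart (11.6%, beside 17.5%) and a median of 0.08. Cd28-203, from the costimulatory receptor's gene, was at 1.17%, 1.19% and 1.20% in WT and 0.999%, 0.923% and 0.932% in Wtap KO (adjusted p = 0.311). Cytokine receptor, JAK and STAT genes held 21 members, none called, with 4 lower and 0 higher with groups apart (19.0%, beside 17.5% of all transcripts) and a median of -0.12. Among them were Ifngr1-204, from the interferon gamma receptor, at 6.82%, 6.79% and 6.80% in WT and 3.69%, 3.54% and 5.51% in Wtap KO (adjusted p = 0.338), and Ifnar1-205 at 3.89% and 2.89% (adjusted p = 0.35), whose gene rose (log2 0.62, adjusted p = 0.00736, edgeR).

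Of 33 interferon-stimulated genes tested, 16 rose and none fell at the gene level, beside 5.74% of all genes that rose and 3.48% that fell, while their 21 members in 13 genes had no call for share. Xaf1-203, which keeps a whole intron of 1954 bases, was at 52.6%, 50.5% and 45.8% in WT and 45.7%, 41.5% and 42.2% in Wtap KO (adjusted p = 0.485) as Xaf1 rose (log2 0.58, adjusted p = 0.0498, edgeR). Irf9-206, with 4 whole introns, was at 18.8% and 16.2% (adjusted p = 0.526). Apoptosis and necroptosis genes had 6 members and store-operated calcium entry and NFAT genes 3. None was called and none had groups apart, beside 0.178% and 17.5% of all transcripts. Bbc3-203, Cflar-213, Stim1-205 and Ppp3cb-208 had adjusted p of 0.8 to 0.957 in edgeR's test.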

How the data were processed

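mRNA libraries made from total RNA of CD4+ T cells were measured, 3 WT and 3 Wtap KO, grouped and numbered by sample title. The authors deposited, per the file headers, an estimated count and a TPM value for each transcript and library. The submitters' processing notes name kallisto (0.44.0), DESeq2 and the build GRCm38 (mm10). Not given in the sources used here are the index annotation, the strand setting and the error of splitting reads between a gene's transcripts. Identifiers without version were matched to GENCODE M21 (99.21%; 1123 unmatched transcripts were left out), and 99.72% of matched transcripts had the annotated length. Splice-site sequences were read from the GENCODE transcript sequences.

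A share is a transcript's estimated counts over those of its gene. Estimated counts were rounded, and shares were tested with edgeR 4.0.16 (R 4.3.3, robust quasi-likelihood, log gene total as offset) for transcripts with a mean count of at least 10 in genes with at least 2 such transcripts, with Benjamini-Hochberg adjustment over the 39369 tested, with a threshold of 0.05. Levels of transcripts and of genes were tested with TMM normalization, and an SE is the log2 change over the square root of F. Summed shares, 1 value per library, were compared with exact permutation tests over 20 regroupings. On simulated data for 39369 transcripts the test of shares recovered 18% of 100 transcripts changed 4-fold and 0% of 100 changed 2-fold, with 2 calls in genes without a change; DESeq2 1.42.0 recovered 85% and 28% with 164 such calls. At these sizes edgeR's test of shares would thus miss most changes.

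Alternatives were limma 3.58.1, edgeR's diffSpliceDGE, DESeq2, other filters, thresholds and normalizations, a replicate block and leaving out each library; 3 subsets of the members were added after seeing the data. Named members were those called; the 3 with the next smallest p among lower shares; the 8 highest by TPM, and by share in genes with a mean of at least 100 counts; up to 6 in each of the writer, SR protein, SR kinase and minor spliceosome lists; up to 2 in each other list; and 3 on either side of the threshold. Members, gene lists and markers were chosen with earlier results of these data known. Some features covered by these rules are not reported here.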

Additional observations from a re-analysis of the deposited data

How the results depend on the processing

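The count of members called for share, 9, depended on the test. It was 4 with limma's log-ratio, 9 with diffSpliceDGE (1 in common), 102 with DESeq2 (all 9 among them), 3 with the logit of the TPM share, 9 with filterByExpr and 3 without a filter. With a replicate block it was 0 (377 at an unadjusted p under 0.05), and with 1 library left out 0 to 1 (356 to 608 at an unadjusted p under 0.05). Each of the 9 kept its direction in the 13 alternatives run. The 8 members with a changed level became 237 with DESeq2, 14 without a filter, 0 with the replicate block (392 at an unadjusted p under 0.05) and 0 to 1 without 1 library; the 305 host genes became 546 with DESeq2, 147 with the block and 45 to 434 without 1 library, the lowest without Wtap KO 2, with 50 without Wtap KO 1, 73 without WT 2 and 113 without Wtap KO 3. Same-numbered libraries showed little tendency to deviate together (correlations of member shares -0.185, -0.0238 and -0.00125, of gene levels -0.103, 0.0506 and 0.14). The labels do not say whether they were prepared together, and these correlations cannot decide it. The summed share was -0.135 percentage points with TPM and ranged from -0.049 to 0.222 without 1 library; with the block its p was 0.75. The log2 ratio to decay targets, -0.001, was 0.0038 at a threshold of 2 TPM and -0.018 to 0.016 without 1 library. Ppp3cb-208 changed sign without WT 1, with a range of -0.043 to 0.191 without 1 library. None of these differences in sum passed a test, and none could at 0.05. The exact permutation test cannot go below 0.10 here, nor below 0.25 with the block. The cause of these shifts was not tested, apart from fewer libraries where 1 was left out. Depth limits the low members, which rest on few counts.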

Other observations

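Ribosomal protein genes held 119 members with 21.8% of the summed TPM of all members. None of the 118 tested was called for share by edgeR, 19 (16.1%) were higher and 8 (6.78%) lower with groups of libraries that did not overlap (beside 9.45% and 8.09% of all transcripts), and their median log2 change of share was 0.08.

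Introns of the U12 type are often spliced slowly. A donor that starts with ATATCCTT or GTATCCTT, on the strand of the gene, was found in 15 of the 2226 whole introns kept in members (0.674%), and in 21 of 5661 kept in retained-intron transcripts below the level threshold (0.371%). Among them was Prim1-202, from the gene of the small primase subunit, with an intron of 607 bases that begins with AT and ends with AT (chr10:128022973-128023579, plus strand). Its log2 change of share was 0.25 ± 0.09 (SE, adjusted p = 0.473, edgeR), with groups apart. Tcea2-202 and Ift80-204, whose introns begin with AT and end with AC, had changes of -0.14 ± 0.40 and -0.01 ± 0.09. A match of these letters is a description, not proof of the splicing machinery used.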
